A study of Mus musculus with 15 samples.

Results

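The miR-99/100 and miR-125 families are represented in the deposited mouse lung table by 5 guide strands, mmu-miR-99a-5p, mmu-miR-99b-5p, mmu-miR-100-5p, mmu-miR-125a-5p and mmu-miR-125b-5p, written without the species prefix from here on. They were taken by name, without a cutoff on their values, and are 5 of the 1424 mature miRNAs listed. The choice was made with earlier results of these data known. Small RNA was sequenced from whole lungs of C57BL/6 mice labelled 11 weeks old, which were either wild type (WT) or homozygous for the R213G form of extracellular superoxide dismutase (EC-SOD), an antioxidant enzyme of the extracellular space. Each mouse had 1 intratracheal dose of 100 uL, either bleomycin at 1 U/mL, a DNA-damaging drug that injures the lung, or phosphate-buffered saline (PBS) alone. Lungs were flushed through the right ventricle and taken at day 7. There are 15 libraries, 3 from WT lungs given PBS and 4 in each of the other groups (WT with bleomycin, R213G with PBS, and R213G with bleomycin). Mice of both sexes were used, and the sources used here do not say which library came from which sex.

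As background, a miRNA is cut from 1 arm of a hairpin, loaded into an Argonaute protein, and binds messenger RNAs mainly through its seed, bases 2 to 8. The opposite arm gives a partner strand that is usually degraded. In mammals the genes of both families lie in mixed clusters in which a miR-99/100 member, a let-7 member and a miR-125 member stand side by side. Such a cluster is called a polycistron because its hairpins can be cut from 1 primary transcript. The miR-99/100 family is known for targeting Mtor and Igf1r, and the miR-125 family, the vertebrate relative of lin-4, for roles in differentiation, in p53 signalling and in blood cells.

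The mature sequences show which members the libraries can tell apart, and are given 5′ to 3′ from RefSeq (GRCm38.p6) with the seed in capitals.
miR-99a-5p: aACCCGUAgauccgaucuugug
miR-100-5p: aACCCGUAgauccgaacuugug
miR-99b-5p: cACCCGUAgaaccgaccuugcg
miR-125b-5p: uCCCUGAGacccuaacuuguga
miR-125a-5p: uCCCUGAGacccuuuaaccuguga
Only the substitution U16A, counted from the 5′ end, separates miR-99a-5p from miR-100-5p, which are identical at 21 of 22 bases. Reads with an error at that base, or cut short before it, could be counted for the other. The separate values of these 2 miRNAs are uncertain to that extent. The counterpart miR-99b-5p differs from miR-99a-5p at 4 positions (A1C, U11A, U16C and U21C). The 24 bases of miR-125a-5p and the 22 bases of miR-125b-5p share their first 13 and last 5 bases.

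The genes stand in 3 polycistrons, all on the plus strand (mature coordinates from RefSeq, GRCm38.p6, and gene parts from GENCODE M21). The miR-99a cluster, with let-7c-1 and miR-125b-2, spans 47.4 kb from the first to the last mature base on chromosome 16. Its 3 hairpins lie in introns of the noncoding gene Mir99ahg, with miR-99a-5p at chr16:77598940-77598961. The miR-100 cluster, with let-7a-2 and miR-125b-1, spans 50565 bases on chromosome 9. Its hairpins lie in introns of the noncoding gene 3110039I08Rik, with miR-100-5p at chr9:41531437-41531458. The miR-99b cluster, with let-7e and miR-125a, spans 683 bases on chromosome 17, inside the protein-coding gene Spaca6. There miR-99b-5p (chr17:17830194-17830215) is intronic and miR-125a-5p (chr17:17830817-17830840) is in an exon. The mature miR-125b-5p is encoded at both chr16:77646279-77646300 and chr9:41581940-41581961, so its reads do not show which locus they came from.

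The deposited values are log2 of 1 plus a scaled abundance. After the logarithm was undone, they summed to 20688471 to 24759615 per library in WT PBS and 19087572 to 21189040 in WT bleomycin. In R213G the sums were 21775507 to 23232884 with PBS and 18087290 to 21071255 with bleomycin. Read depth is unknown, since such sums are not counts of reads, and no counting interval can be given. Library numbers in the labels form 1 unbroken range per genotype, so genotype cannot be told apart from whatever those numbers track. The R213G numbers do not separate the treatments, whereas all WT bleomycin libraries precede all WT PBS libraries. That these libraries are separate mice rests on the labels alone, and otherwise the p-values measure only the spread between libraries.

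All 5 members passed the filter on low values, a linear value above 5 in at least 3 libraries, which left 818 miRNAs to test. Together they made up 1.43% to 1.89% of a library's sum. The most abundant was miR-125a-5p, with a mean share of 0.724% and rank 23 of 1424. It was followed by miR-99b-5p (0.502%, rank 30) and miR-125b-5p (0.266%, rank 49). The rarest members, miR-100-5p (0.0515%, rank 93) and miR-99a-5p (0.0469%, rank 94), were neighbours in the order. The miR-99b cluster therefore gave the most abundant member of each seed family. The order was the same in every library except at its lower end, where miR-99a-5p was above miR-100-5p in 3 of 15 libraries, all of them R213G bleomycin. Ligation and amplification favour some small RNA sequences over others, so this order describes the libraries rather than molecules in the lung.

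After bleomycin, 4 of the 5 guide strands were lower on the deposited scale in WT lungs, and the same 4 were lower in R213G lungs. These were miR-99a-5p, miR-100-5p, miR-125a-5p and miR-125b-5p, by 0.30 to 0.50 on the log2 scale. The fifth, miR-99b-5p, did not pass the test in either genotype, and its difference turned positive in both genotypes under quantile normalization and in R213G under equal library sums. Only miR-100-5p passed in both genotypes under all 4 scalings of the libraries that were tried.

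For miR-100-5p, from the chromosome 9 cluster, the deposited log2 values were 13.67, 13.72 and 13.82 in WT PBS and 13.41, 13.17, 13.24 and 13.25 in WT bleomycin. In R213G they were 13.51, 13.71, 13.52 and 13.50 with PBS and 13.13, 13.02, 13.11 and 12.99 with bleomycin. Every bleomycin library was below every PBS library of its genotype. The log2 difference was -0.47 (SE 0.09) in WT and -0.50 (SE 0.08) in R213G, with adjusted p 0.00117 and 0.000289 (limma with Benjamini-Hochberg adjustment over 818 miRNAs).

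The chromosome 16 product miR-99a-5p had log2 values of 13.35, 13.50 and 13.67 in WT PBS and 13.09, 13.14, 13.00 and 13.13 in WT bleomycin. In R213G it had 13.21, 13.62, 13.26 and 13.46 with PBS and 13.15, 13.04, 13.10 and 13.07 with bleomycin. The groups did not overlap in either genotype, but in R213G the PBS libraries themselves fell into a lower pair (replicates 1 and 3) and a higher pair (replicates 2 and 4). These pairs are also the lower and the higher library numbers, and within them the log2 differences were -0.11 and -0.49 (2 against 2 each, no test). Every other member also fell less among the lower R213G numbers than among the higher. The log2 differences, lower then higher, were -0.015 and -0.32 for miR-99b-5p and -0.40 and -0.60 for miR-100-5p. They were -0.33 and -0.49 for miR-125a-5p and -0.36 and -0.46 for miR-125b-5p. The fall was 0.42 on the log2 scale in WT (SE 0.11, limma adjusted p = 0.00854) and 0.30 in R213G (SE 0.10, limma adjusted p = 0.0243). The R213G call was lost when any of 4 libraries was left out, with a limma adjusted p of 0.0941 without PBS replicate 2, 0.0677 without PBS replicate 4, 0.0512 without bleomycin replicate 2 and 0.0544 without bleomycin replicate 4.

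For miR-125b-5p, made by both of those clusters, WT PBS libraries stood at 15.91, 16.06 and 16.21 and WT bleomycin libraries at 15.74, 15.46, 15.59 and 15.69. R213G libraries stood at 15.83, 16.04, 15.85 and 15.95 with PBS and at 15.47, 15.49, 15.49 and 15.58 with bleomycin. Again no bleomycin library reached a PBS library of its genotype. The log2 difference was -0.45 (SE 0.10) in WT and -0.41 (SE 0.09) in R213G, with limma adjusted p 0.0024 and 0.00174.

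The most abundant member, miR-125a-5p, had log2 values of 17.38, 17.57 and 17.48 in WT PBS against 17.13, 16.91, 17.18 and 17.16 in WT bleomycin. The R213G values were 17.32, 17.49, 17.30 and 17.35 with PBS against 16.97, 16.92, 17.00 and 16.94 with bleomycin, where the spread was the smallest of any member and group (SD 0.03, n = 4). The groups were separate in both genotypes. Its log2 difference was -0.38 (SE 0.09) in WT and -0.41 (SE 0.08) in R213G, with limma adjusted p 0.00393 and 0.000926.

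For miR-99b-5p, the neighbour of miR-125a-5p on chromosome 17, WT PBS libraries had log2 values of 16.83, 16.91 and 16.68 and WT bleomycin libraries 16.81, 16.43, 16.60 and 16.56. R213G libraries had 16.68, 16.90, 16.71 and 16.72 with PBS and 16.66, 16.52, 16.70 and 16.47 with bleomycin. The groups overlapped in both genotypes. The log2 difference was -0.21 in WT (95% interval -0.43 to 0.00, limma adjusted p = 0.136) and -0.17 in R213G (95% interval -0.37 to 0.03, limma adjusted p = 0.172). In WT the difference passed without bleomycin replicate 1, the highest of its group, at -0.28 (limma adjusted p = 0.0428), and with limma's array weights at -0.28 (adjusted p = 0.0379).

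**Figure D1:**
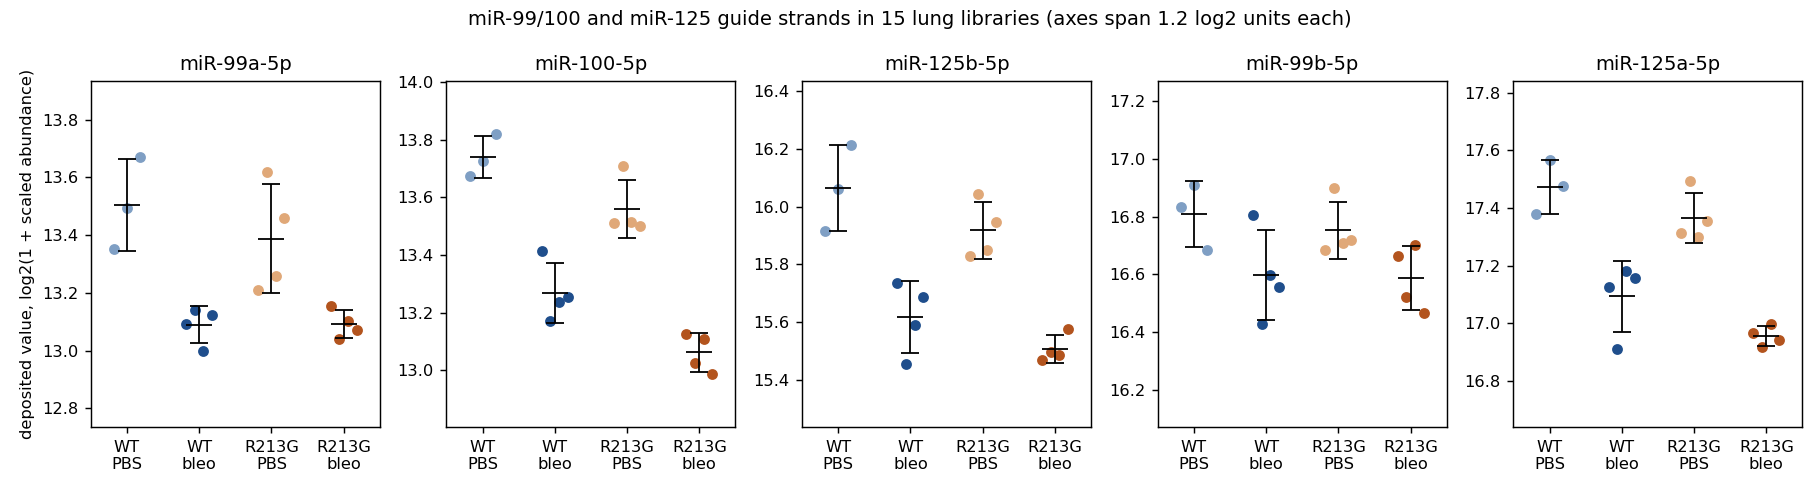
Deposited log2 value of each guide strand (y axis, 1 panel per miRNA, each spanning 1.2 log2 units) in each of the 15 libraries by group; points are libraries, the long bar is the mean and the whiskers 1 SD. In 4 panels the bleomycin points lie below the PBS points of their genotype on this scale, and for miR-99b-5p they overlap.

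Read against all tested miRNAs, 4 of 5 members called lower compares with 10.3% of the 818 in WT and 19.8% in R213G, and 8.92% were called lower in both genotypes. The members are abundant, and calls of lower were more common among abundant miRNAs. With the filter raised to a linear value above 50, 78 of 469 miRNAs were called lower in WT and 142 of 469 in R213G, with the same 4 members among them. The median log2 difference of the 5 members was -0.42 in WT and -0.41 in R213G, where the median over all tested miRNAs was 0.05 in each. Groups that did not overlap, with bleomycin lower, were seen for 13.6% of tested miRNAs in WT and 17.4% in R213G, and for the same 4 members in both. In the authors' deposited table, the q-value of the parametric test in R213G was 0.0101 for miR-100-5p, 0.0204 for miR-125a-5p and 0.0226 for miR-125b-5p. That table gave 0.175 for miR-99a-5p and 0.210 for miR-99b-5p in R213G, and in WT its lowest q-value among the members was 0.0542, for miR-100-5p.

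How large the fall was depended on how libraries were scaled. When each library was set to the same sum, an alternative chosen after the lower sums of bleomycin libraries had been seen, the median over all tested miRNAs moved to 0.21 in WT and 0.27 in R213G. On that scale miR-100-5p was at -0.30 in WT and -0.28 in R213G (limma adjusted p 0.0426 and 0.0288), and it was the only member that passed. There miR-125a-5p was at -0.21 and -0.20 (limma adjusted p 0.0762 and 0.0561), and miR-125b-5p at -0.27 and -0.20 (limma adjusted p 0.0839 and 0.145). On the same scale miR-99a-5p was at -0.24 and -0.08 (limma adjusted p 0.183 and 0.617). With library medians set equal, the same 4 members as on the deposited scale passed in both genotypes, by -0.43 to -0.63, and miR-99b-5p missed at -0.33 and -0.30 (limma adjusted p 0.0779 and 0.0627). After quantile normalization miR-99a-5p, miR-100-5p and miR-125b-5p passed in both genotypes, while miR-125a-5p did not (-0.18 in WT and -0.08 in R213G, limma adjusted p 0.0734 and 0.383).

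**Figure D2:**
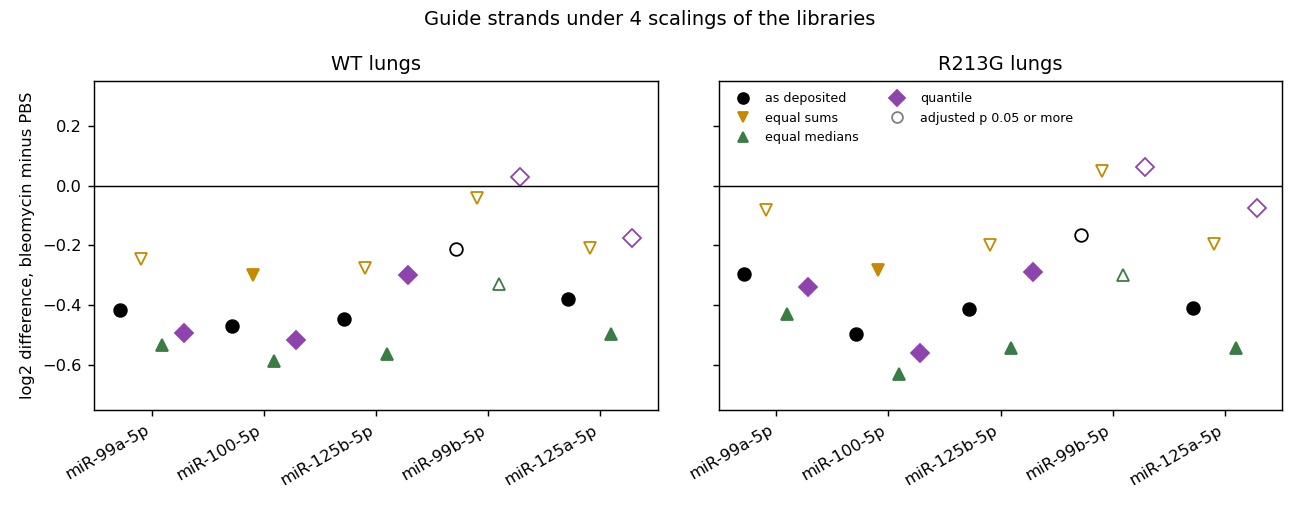
Log2 difference, bleomycin minus PBS (y axis), of each guide strand (x axis) in WT and R213G lungs on the deposited scale and with library sums, library medians or whole distributions made equal; open symbols have a limma adjusted p of 0.05 or more. miR-100-5p is filled throughout, and miR-99b-5p is above 0 after quantile normalization in both genotypes and with equal sums in R213G.

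Ratios between 2 members of the same library do not depend on a factor common to the library, and 7 were tested by exact two-sided permutation of treatment within genotype (2450 arrangements, smallest possible p 0.000408). The ratio that moved most was miR-99b-5p over miR-100-5p, which share a seed but come from different clusters. It was 3.07 ± 0.18 (log2, SD, n = 3) in WT PBS, 3.33 ± 0.06 (n = 4) in WT bleomycin, 3.19 ± 0.02 (n = 4) in R213G PBS and 3.53 ± 0.05 (n = 4) in R213G bleomycin. All bleomycin libraries were above all PBS libraries of their genotype. The mean rise over both genotypes was 0.29 (exact permutation p = 0.000408, adjusted p = 0.00286 over the 7 pairs), so miR-100-5p lost ground to miR-99b-5p. After quantile normalization, which reshapes values by abundance as well, the rise was 0.58 with the same p.

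The chromosome 17 neighbours also parted. The log2 ratio of miR-99b-5p to miR-125a-5p was -0.55, -0.66 and -0.79 in WT PBS and -0.32, -0.48, -0.58 and -0.60 in WT bleomycin, which overlap. In R213G it was -0.63, -0.59, -0.59 and -0.63 with PBS and -0.30, -0.40, -0.30 and -0.48 with bleomycin, with no overlap. The mean rise was 0.21 (exact permutation p = 0.00245, adjusted p = 0.00857), and in WT alone it was 0.17 (exact permutation p = 0.171). These miRNAs lie within 683 bases of each other, and miR-125a-5p was lower relative to its neighbour after bleomycin.

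No change in ratio passed the adjusted threshold for the other 5 pairs. Over both genotypes, miR-125a-5p against miR-125b-5p, the 2 miRNAs of 1 seed, shifted by 0.03 (exact permutation p = 0.477), between 0.00 and 0.06 when any 1 library was left out. The shift was -0.06 for miR-100-5p against miR-125b-5p (exact permutation p = 0.189) and 0.07 for miR-99a-5p against miR-125b-5p (exact permutation p = 0.195). These 2 pairs compare the first and the last product of a cluster, with the limit that miR-125b-5p comes from both clusters. For miR-99a-5p against miR-99b-5p the shift was -0.17 (exact permutation p = 0.0722, adjusted p = 0.126). For the near-identical miR-99a-5p and miR-100-5p it was 0.13 (exact permutation p = 0.0429, adjusted p = 0.10), with 0.06 in WT and 0.20 in R213G. Quantile normalization before the ratio brought 3 of these 5 pairs to an unadjusted exact permutation p under 0.05, namely miR-99a-5p against miR-99b-5p (-0.46), miR-125a-5p against miR-125b-5p (0.17) and miR-100-5p against miR-125b-5p (-0.25).

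**Figure D3:**
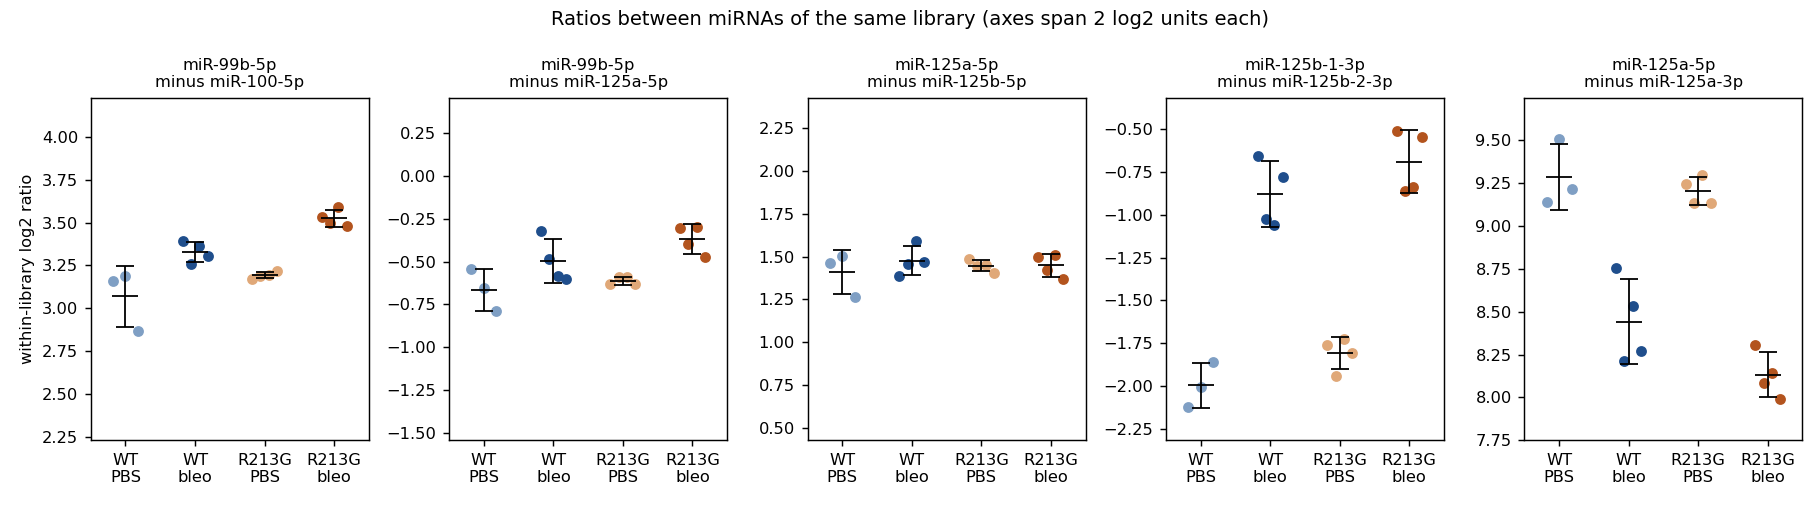
Within-library log2 ratio (y axis, each panel spanning 2 log2 units) of 5 pairs of miRNAs by group; points are libraries, the long bar is the mean and the whiskers 1 SD. The miR-125a-5p to miR-125b-5p ratio stays between 1.26 and 1.59 in all groups, while the miR-125b-1-3p to miR-125b-2-3p ratio rises from means of -2.0 and -1.81 to -0.88 and -0.69.

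The partner strands differed among themselves. Of the 6, in each genotype 3 were called higher after bleomycin (miR-99b-3p, miR-125a-3p and miR-125b-1-3p), 1 lower (miR-99a-3p), and 2 did not pass (miR-100-3p and miR-125b-2-3p). Among all 818 tested miRNAs 16.4% were called higher in WT and 22.2% in R213G, with 12.7% higher in both, and in 18.7% and 21.9% the bleomycin group lay wholly above the PBS group. The sequences of the strands that rose, and of miR-125b-2-3p, are given from RefSeq because the miR-125b strands tell apart the loci of 1 shared guide and the others are the chromosome 17 partner strands that were called higher, again with bases 2 to 8 in capitals.
miR-125b-1-3p (chromosome 9): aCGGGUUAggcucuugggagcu
miR-125b-2-3p (chromosome 16): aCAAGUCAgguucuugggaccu
miR-99b-3p (chromosome 17): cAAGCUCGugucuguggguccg
miR-125a-3p (chromosome 17): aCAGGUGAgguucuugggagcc

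The widest change was in miR-125b-1-3p, the strand that only the chromosome 9 copy of miR-125b gives. Its log2 values were 9.70, 9.89 and 10.29 in WT PBS and 11.09, 10.90, 10.81 and 11.22 in WT bleomycin. In R213G they were 10.10, 10.25, 10.11 and 10.29 with PBS and 11.20, 11.11, 10.95 and 11.32 with bleomycin. Bleomycin libraries were above PBS libraries in both genotypes, by 1.05 (SE 0.14) in WT and 0.96 (SE 0.13) in R213G on the log2 scale, with limma adjusted p 6.22e-05 and 5.07e-05. For scale, the guide miR-125b-5p was 4.25 to 6.21 log2 units above this strand in every library.

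The chromosome 16 partner strand did not pass the test on the deposited scale. This strand, miR-125b-2-3p, had log2 values of 11.83, 11.90 and 12.14 in WT PBS and 11.74, 11.93, 11.87 and 12.00 in WT bleomycin. In R213G it had 11.86, 12.19, 11.83 and 12.10 with PBS and 11.72, 11.97, 11.78 and 11.87 with bleomycin, so the groups overlapped in both genotypes. The log2 difference was -0.07 (SE 0.12) in WT and -0.16 (SE 0.11) in R213G, with limma adjusted p 0.687 and 0.249, and it was above 0 in both genotypes with equal library sums. With equal library medians it was called lower in R213G, at -0.29 (limma adjusted p = 0.0343).

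The ratio of the 2 partner strands of miR-125b changed with treatment. The log2 ratio of miR-125b-1-3p to miR-125b-2-3p was -2.0 ± 0.13 (SD, n = 3) in WT PBS and -0.88 ± 0.19 (n = 4) in WT bleomycin. It was -1.81 ± 0.10 (n = 4) in R213G PBS and -0.69 ± 0.19 (n = 4) in R213G bleomycin. The mean rise of 1.12 had an exact permutation p of 0.000408 (adjusted p = 0.000735 over 9 pairs of strands and neighbours chosen after the data had been seen), the smallest p the design allows. The chromosome 9 strand remained the rarer in 15 of 15 libraries. The rise was 1.12 in WT and 1.12 in R213G.

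On chromosome 17 both partner strands rose. For miR-99b-3p the log2 values were 9.93, 9.85 and 9.67 in WT PBS, 10.30, 10.12, 10.27 and 10.28 in WT bleomycin, 9.77, 9.72, 9.80 and 9.75 in R213G PBS, and 10.31, 10.38, 10.14 and 10.30 in R213G bleomycin. The groups did not overlap, and the log2 difference was 0.42 (SE 0.10) in WT and 0.53 (SE 0.09) in R213G, with limma adjusted p 0.00509 and 0.000465. Its own guide, miR-99b-5p, was at -0.21 and -0.17.

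For miR-125a-3p the log2 values were 8.24, 8.06 and 8.26 in WT PBS, 8.37, 8.70, 8.65 and 8.89 in WT bleomycin, 8.07, 8.36, 8.00 and 8.22 in R213G PBS, and 8.66, 8.83, 8.85 and 8.95 in R213G bleomycin. The groups were again separate, with log2 differences of 0.47 (SE 0.14) in WT and 0.66 (SE 0.13) in R213G and limma adjusted p 0.0178 and 0.000759. The WT call was lost without bleomycin replicate 4 (limma adjusted p = 0.0610), without PBS replicate 2 (limma adjusted p = 0.0849), with only the groups compared in the fit (limma adjusted p = 0.0617) and with equal library medians (limma adjusted p = 0.0707), as was that of miR-99b-3p with equal medians (limma adjusted p = 0.0989). In R213G both rises passed under all 4 scalings.

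Guide to partner ratios were taken only for the members, and how common a fall in them was among other hairpins was not counted. Because miR-125b-5p comes from 2 loci, its ratios to miR-125b-1-3p and miR-125b-2-3p are not ratios within 1 hairpin. Within libraries, the guide to partner ratio fell for miR-125a by 0.96, for miR-99b by 0.66 and for miR-125b-5p against miR-125b-1-3p by 1.43 (log2, exact permutation p = 0.000408 each, adjusted p = 0.000735). It fell by 0.68 for miR-100 (exact permutation p = 0.00245) and by 0.31 for miR-125b-5p against miR-125b-2-3p (exact permutation p = 0.00163). In WT alone these 2 falls were 0.40 (exact permutation p = 0.171, groups overlapping) and 0.37 (exact permutation p = 0.0571, groups apart). In R213G alone they were 0.96 and 0.25, both at the smallest p that 1 genotype allows (exact permutation p = 0.0286 each). With quantile normalization the falls for miR-125a, miR-99b and miR-125b-5p against miR-125b-2-3p were smaller, at -0.63, -0.40 and -0.19, and each kept an exact permutation p under 0.05. The chromosome 16 miR-99a hairpin went the other way, with a rise of 0.12 (exact permutation p = 0.0355) that lost a p under 0.05 in 8 of 15 cases when 1 library was left out and was not seen at that level in WT or R213G alone. The libraries concerned were PBS replicates 1 and 2 and bleomycin replicates 1 and 4 in WT, and PBS replicates 3 and 4 and bleomycin replicates 1 and 4 in R213G, with values of 0.09 to 0.12 for miR-99a-5p minus miR-99a-3p. In that hairpin both strands were lower, miR-99a-3p by -0.50 (SE 0.11) in WT and -0.45 (SE 0.10) in R213G (limma adjusted p 0.0024 and 0.0019), although neither passed with equal sums. The other strand that did not pass, miR-100-3p, is rare, at log2 4.37 to 5.51, and its differences were -0.07 in WT and 0.46 in R213G (limma adjusted p 0.831 and 0.0667). In R213G it passed with equal sums (0.67, limma adjusted p = 0.0189), with array weights (0.50, limma adjusted p = 0.0318), with no intensity trend (0.46, limma adjusted p = 0.0482) and without PBS replicate 1 (0.55, limma adjusted p = 0.0483).

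Opposite calls for the 2 arms of 1 hairpin were uncommon in the table. Of 234 hairpins whose 5p and 3p strands were both tested and carry the same name, 2 (0.855%) had opposite calls in WT and 4 (1.71%) in R213G. In both genotypes, on the deposited scale, miR-125a was the one hairpin with its 5p strand lower and its 3p strand higher, of 29 hairpins in WT and 47 in R213G whose 5p strand was lower. On other scales 1 arm of miR-125a or the other missed the threshold. In WT these were the 5p strand with equal sums (limma adjusted p = 0.0762) and quantile normalization (0.0734) and the 3p strand with equal medians (0.0707), and in R213G the 5p strand with equal sums (0.0561) and quantile normalization (0.383). Because the names of its 3p strands carry the locus number, miR-125b is not among the 234.

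**Figure D4:**
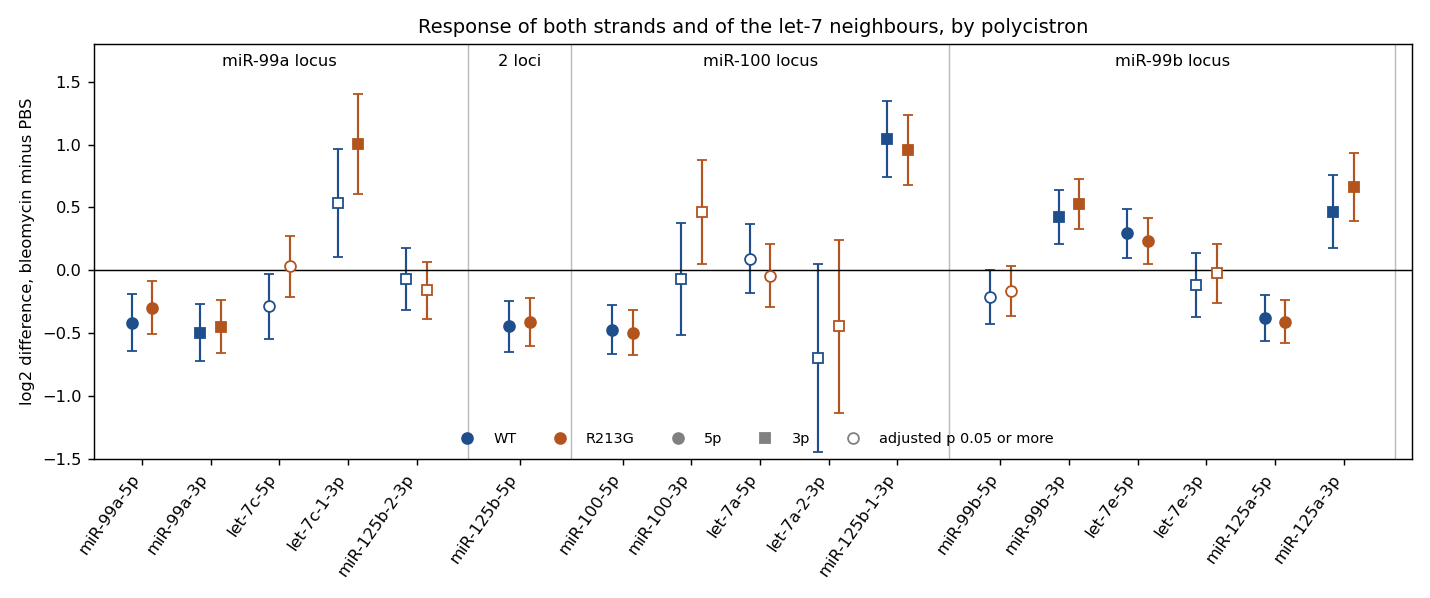
Log2 difference, bleomycin minus PBS, with its 95% interval (y axis) for both strands of each member and for the let-7 neighbours, ordered by polycistron (x axis); circles are 5p and squares 3p strands, and open symbols have a limma adjusted p of 0.05 or more. On the deposited scale miR-125b-1-3p is the highest point in WT, and miR-99b-3p and miR-125a-3p lie above 0 while miR-125a-5p lies below.

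The let-7 family, known for restraining growth and cell cycle genes, has 6 strands in the clusters. On the deposited scale 1 of the 6 was called higher in WT and 2 in R213G, against 16.4% and 22.2% of all tested miRNAs, and none was called lower. On chromosome 17, let-7e-5p stood at 14.21, 14.13 and 14.27 in WT PBS, 14.30, 14.48, 14.63 and 14.58 in WT bleomycin, 14.43, 14.28, 14.39 and 14.30 in R213G PBS, and 14.62, 14.60, 14.64 and 14.46 in R213G bleomycin. Bleomycin libraries were above PBS libraries in both genotypes, by 0.29 (SE 0.09) in WT and 0.23 (SE 0.09) in R213G, with limma adjusted p 0.0258 and 0.0406. Leaving out 1 library ended the let-7e-5p call in 4 of 15 cases in WT (PBS replicates 1 and 2 and bleomycin replicates 3 and 4, limma adjusted p 0.0632 to 0.107). It did so in 6 of 15 in R213G (PBS replicates 2, 3 and 4 and bleomycin replicates 1, 2 and 3, limma adjusted p 0.0563 to 0.101). Equal library medians ended both calls, at 0.18 and 0.10 (limma adjusted p 0.234 and 0.439).

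Against its neighbours, let-7e-5p gained 0.66 on miR-125a-5p (exact permutation p = 0.000408) and 0.45 on miR-99b-5p (exact permutation p = 0.00204), with every bleomycin library above every PBS library of its genotype for the first ratio. In WT alone the gain on miR-99b-5p was 0.51 (exact permutation p = 0.0857). The chromosome 17 cluster thus held, on the deposited scale, 1 guide strand that was higher (let-7e-5p), 1 that was lower (miR-125a-5p) and 1 that did not pass (miR-99b-5p). The strand let-7c-1-3p, particular by name to the chromosome 16 locus, was higher in R213G by 1.01 (SE 0.19, limma adjusted p = 0.000605), while in WT the difference was 0.54 (limma adjusted p = 0.0605), which passed with equal sums at 0.71 (limma adjusted p = 0.0147). The guides let-7c-5p and let-7a-5p, which other let-7 genes also encode, had differences of -0.29 and 0.09 in WT and 0.03 and -0.04 in R213G, none of which passed.

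The seed ACCCGUA occurs in the table only in the 3 miR-99/100 members. The miR-125 seed CCCUGAG occurs in 1 more tested miRNA, miR-351-5p, which is encoded on the X chromosome (minus strand) and whose RefSeq sequence is shown to mark where it parts from the family.
miR-351-5p: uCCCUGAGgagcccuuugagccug
Its log2 values were 15.74, 15.85 and 15.36 in WT PBS, 14.68, 14.26, 14.74 and 14.31 in WT bleomycin, 15.67, 15.88, 15.32 and 15.74 in R213G PBS, and 14.26, 14.82, 14.04 and 14.43 in R213G bleomycin. No bleomycin library reached a PBS library. The log2 difference was -1.15 (SE 0.18) in WT and -1.27 (SE 0.17) in R213G, with limma adjusted p 0.000244 and 3.96e-05. All 3 tested guides with the miR-125 seed were therefore lower after bleomycin on the deposited scale, miR-351-5p by more than its better known relatives. After quantile normalization miR-351-5p was at -0.71 in WT (limma adjusted p = 0.0346).

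Genotype made no difference that passed the test. For R213G against WT, 0 of 818 miRNAs (0%) were called by limma after PBS, after bleomycin or in the genotype by bleomycin interaction, with 44, 97 and 65 at an unadjusted p under 0.05. Among the members 1 reached an unadjusted p under 0.05, miR-100-5p after bleomycin, where R213G was lower by -0.21 (SE 0.08, 95% interval -0.38 to -0.03, limma adjusted p = 0.387). All 4 R213G bleomycin libraries were below all 4 WT bleomycin libraries for miR-100-5p, a separation seen in that direction for 2.44% of tested miRNAs. With PBS the members were 0.06 to 0.18 below WT on the log2 scale, and after bleomycin the other 4 lay between -0.14 and 0.00. The interaction ranged from -0.03 for miR-125a-5p to 0.12 for miR-99a-5p, whose 95% interval was -0.19 to 0.43. None of the members' differences between genotypes passed this test after adjustment, and what size these libraries could detect was not tested.

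Profiles over the 15 libraries were compared by the root mean square difference of log2 values after each mean was subtracted, among 287 miRNAs with a mean above log2 8. This is a description over libraries that share treatment and scaling. The closest to miR-125a-5p and to miR-125b-5p was the other one, at 0.0728, although they come from different chromosomes. For miR-100-5p the closest was miR-125b-5p (0.0825), ahead of miR-125a-5p (0.0868). For miR-99a-5p it was also miR-125b-5p (0.102), and its closest profile outside the 5 was its own partner strand miR-99a-3p (0.114). The profile of miR-99b-5p was nearest to miR-30c-5p (0.101) and miR-24-1-5p (0.109), with its cluster neighbour miR-125a-5p only in place 14 (0.140). Outside the families, miR-195a-3p (0.0829) and the epithelial miRNA strand miR-200a-5p (0.0950) were nearest to miR-125a-5p, and miR-200b-5p, of the same family as miR-200a-5p, was the second nearest to miR-99a-5p (0.123). The smooth muscle miRNA strand miR-145a-3p was among the 2 nearest to miR-100-5p (0.109) and miR-125b-5p (0.117), in both cases after miR-99a-3p (0.106 and 0.115).

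Whole lung mixes many cell types, and in such samples fewer cells of a type and less RNA per cell cannot be told apart. Several marker lists moved with treatment. Their sums are given as shares of a library's total, whereas the calls beside them are limma calls on the deposited scale. Because bleomycin libraries tended to have lower totals, a call of lower can stand beside a share that hardly changed. The 5 myeloid and pan-leukocyte strands, which include miR-223 and miR-142a, summed to 0.216% to 0.305% of a library in WT PBS and 0.382% to 0.640% in WT bleomycin, with 4 of 5 called higher. In R213G they summed to 0.310% to 0.354% with PBS and 0.434% to 0.517% with bleomycin, with 3 of 5 called higher. Most of these sums was miR-142a-5p, with mean shares of 0.207% and 0.377% in WT and 0.272% and 0.366% in R213G, for PBS and bleomycin in turn. The mean log2 value of miR-223-3p went from 12.64 to 12.89 in WT and from 12.92 down to 12.73 in R213G. The 7 epithelial miRNAs summed to 1.43% to 1.66% in WT PBS and 1.41% to 1.65% in WT bleomycin, with 2 called lower. The corresponding R213G sums were 1.51% to 1.71% and 1.46% to 1.59%, with 5 called lower.

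The 8 smooth muscle and mesenchymal strands summed to 14.7% to 16.4% in WT PBS and 13.8% to 15.3% in WT bleomycin. They split into 4 called higher, among them miR-214-3p and miR-199a-5p, and 2 called lower, among them miR-145a-3p. On the deposited scale every miR-143 and miR-145a strand had a lower group mean after bleomycin in both genotypes, and every miR-199a and miR-214 strand a higher one. In R213G the sums were 13.8% to 15.7% and 12.8% to 15%, with 3 higher and 3 lower. The 4 erythroid miRNAs summed to 0.377% to 1.09% in WT PBS and 0.122% to 0.173% in WT bleomycin, with 3 called lower. Their R213G sums were 0.356% to 1.03% with PBS and 0.225% to 0.724% with bleomycin, with 2 called lower. Endothelial strands of miR-126a summed to 4.26% to 4.99% and 5.15% to 5.65% in WT and 4.54% to 5.31% and 4.49% to 6.18% in R213G, for PBS and bleomycin in turn. Neither of the 2 was called in WT, and in R213G miR-126a-3p was called lower, at -0.41 (limma adjusted p = 0.0188). Marker miRNAs of liver, brain, heart and striated muscle together stayed at or below 0.0174% in every library, with none of 4 called in WT and miR-1a-3p called lower in R213G at -1.62 (limma adjusted p = 0.00877). The part of these cell types in the values of the miR-99/100 and miR-125 members was not tested.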

How the data were processed

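Per the labels' protocols, frozen whole lungs were homogenized, total RNA was isolated with miRNeasy columns and DNase, and Illumina libraries were made. The submitters' processing notes name Bowtie2 2.3.2, SAMtools 1.9 and edgeR. The sources used here give neither the genome build nor the miRBase release nor the scaling. The authors deposited log2 values per library for 1424 miRNAs, log2 fold changes, and p-values and q-values of Welch and Wilcoxon tests. The deposited folds equal differences of group means within 7.2e-09.

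The log2 values were used as deposited in limma 3.58.1 (R 4.3.3, intensity trend, 4 group means, 15 libraries), in 5 contrasts, with Benjamini-Hochberg adjustment over 818 miRNAs and calls at an adjusted p under 0.05. The pseudocount in the values is 1, so fold changes of rare miRNAs are understated. Ratios of 7 pairs were tested by exact two-sided permutation, and 9 further pairs were chosen after the data were seen. Both procedures were run on simulated data with independent normal noise. Such data lack any scaling shared by the miRNAs of a library, so those runs do not test its effect. The text names the 5 members, their 6 partner strands, the 6 let-7 strands of the 3 clusters, miRNAs sharing a seed, and per member the 2 nearest profiles. Members, lists and tests were chosen with earlier results of these data known. RefSeq miRNAs that share a seed but are not in the table were not analysed here.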

Additional observations from a re-analysis of the deposited data

Results flagged for a closer look

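Dixon's test was applied to each group of 4 libraries for the members and partner strands, 33 groups in all, of which chance would mark about 1 in 20. In 3 of them 1 library stood apart from the other 3. R213G PBS replicate 2 was the highest of its group for miR-99b-5p, at log2 16.90 with the others between 16.68 and 16.72, and for miR-100-5p, at log2 13.71 with the others between 13.50 and 13.52. WT bleomycin replicate 2 was the lowest of its group for miR-99b-3p, at log2 10.12 with the others between 10.27 and 10.30. Without these libraries the calls of these 3 miRNAs stayed on their side of the threshold.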

How the results depend on the processing

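Alternatives covered each library left out, 2 other filters, 2 pseudocounts, 3 scalings, the variance model, library weights, a replicate block, a term for the R213G library numbers and the compared groups alone. Equal library sums, and quantile normalization before ratios, were chosen after seeing the data. The fall of miR-100-5p after bleomycin kept its direction and call in both genotypes under all 27. Equal sums left 1 member called lower in WT and 1 in R213G. Array weights gave 2 calls between genotypes after bleomycin, and leaving out 1 library gave 0 to 1. Scaling also changed how all calls split: 190 higher and 39 lower in WT and 236 and 79 in R213G with equal sums, 110 and 121 in WT and 148 and 199 in R213G with equal medians, 114 and 108 in WT and 162 and 173 in R213G with quantile normalization, against 134 and 84 in WT and 182 and 162 in R213G as deposited.

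Differences that changed sign lay between -0.18 and 0.19 after the change, and the cause was not tested. Quantile normalization gave miR-99b-5p 0.030 in WT, 0.062 in R213G and 0.0020 for R213G against WT after bleomycin, let-7c-5p -0.18 in R213G, and the interaction of miR-125a-5p 0.10. Equal medians gave -0.015 for miR-99a-5p between genotypes after bleomycin, -0.10 for let-7c-5p in R213G and -0.024 for let-7a-5p in WT. Array weights gave -0.0042 for miR-99a-5p between genotypes after bleomycin, 0.037 for miR-100-3p in WT and 0.0077 for miR-125b-2-3p in WT. Equal sums gave miR-99b-5p 0.048 in R213G and 0.055 between genotypes after bleomycin, interactions of 0.016 for miR-100-5p and 0.012 for miR-125a-5p, miR-100-3p 0.096 in WT, miR-125b-2-3p 0.099 in WT and 0.054 in R213G, let-7a-5p 0.17 in R213G, let-7e-3p 0.054 in WT and 0.19 in R213G, and miR-24-1-5p 0.012 in R213G.

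With 1 library left out, R213G against WT after bleomycin ranged from -0.029 to 0.020 for miR-99a-5p and from -0.066 to 0.060 for miR-99b-5p. The interaction ranged from -0.0095 to 0.12 for miR-99b-5p, -0.065 to 0.024 for miR-100-5p, -0.091 to 0.017 for miR-125a-5p and -0.041 to 0.11 for miR-125b-5p. WT differences ranged from -0.16 to 0.048 for miR-100-3p and -0.14 to 0.022 for miR-125b-2-3p, and R213G differences from -0.025 to 0.081 for let-7c-5p, -0.11 to 0.059 for let-7a-5p and -0.079 to 0.027 for let-7e-3p.

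Among ratios, quantile normalization moved miR-99a-5p minus miR-99b-5p to -0.46, miR-125a-5p minus miR-125b-5p to 0.17 and miR-100-5p minus miR-125b-5p to -0.25, each then with an unadjusted exact permutation p of 0.000408, 0.0163 and 0.00531. It moved miR-99a-5p minus miR-125b-5p to -0.12 and miR-99a-5p minus miR-100-5p to 0.12. In WT alone miR-99a-5p minus miR-100-5p was 0.055 and miR-99b-5p minus miR-125a-5p 0.17, in neither case past the threshold. With 1 library left out, miR-99a-5p minus miR-100-5p ranged from 0.10 to 0.15 and lost its unadjusted call in 10 of 15 cases, miR-99a-5p minus miR-99b-5p from -0.21 to -0.094, and miR-125a-5p minus miR-125b-5p from -0.0031 to 0.058.

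Over 21 same-number pairs of libraries in different groups the correlation of deviations was -0.145 to 0.262. Its median was 0.065, against -0.019 for pairs with different numbers, and 9 of the 21 were above 0.1. These values do not settle whether replicate numbers pair the libraries. With the replicate number as a block, 132 miRNAs were called higher and 83 lower in WT, and 186 and 162 in R213G, and no call of a member changed. Under that block let-7e-5p in R213G was at 0.23 with a limma adjusted p of 0.0526.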
